A study of Mus musculus with 10 samples.

Results

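Condensin is the protein complex that compacts and individualises chromosomes for mitosis, and its 8 subunit genes were examined in 10 RNA-seq libraries of mouse bone marrow B-cells. The members were the rows of the deposited count table whose Ensembl identifiers carry the symbols Smc2, Smc4, Ncapd2, Ncapg, Ncaph, Ncapd3, Ncapg2 and Ncaph2 in the mouse build GRCm38 (8 of 55573 rows), and all 8 passed the filter on low counts. Both groups came from mice with the genotype PAX5-ELN H2B-GFP, were given doxycycline and were taken at 35 days. PAX5-ELN joins the B-cell transcription factor PAX5 to part of the matrix protein elastin, and H2B-GFP is a fluorescent histone that each division dilutes. The 5 GFP high libraries are the ones labelled quiescent and the 5 GFP low libraries are the ones labelled proliferating. The drivers of the transgenes, the ages of the mice and whether each library is a separate animal are not given in the sources used here, so p-values measure the spread between these samples, which may be technical. A control without PAX5-ELN was not analysed here.

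In vertebrates condensin exists in a pair of forms built on the same ATPase core, a dimer of the SMC proteins encoded by Smc2 and Smc4. Condensin I adds the kleisin subunit encoded by Ncaph and the HEAT-repeat subunits encoded by Ncapd2 and Ncapg. Condensin II carries the corresponding paralogs Ncaph2, Ncapd3 and Ncapg2. Condensin II is found in the nucleus through interphase and starts chromosome compaction in prophase, whereas condensin I is mostly cytoplasmic until the nuclear envelope breaks down. In mice, a mutation of Ncaph2 is known to disturb chromosome segregation in developing T cells.

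Each subunit is encoded on a different chromosome. By the GENCODE M21 annotation of GRCm38, Smc2 (ENSMUSG00000028312) spans chr4:52439243-52488260 and Smc4 (ENSMUSG00000034349) spans chr3:69004738-69034623. The condensin I genes are Ncapd2 (ENSMUSG00000038252, chr6:125168007-125191701), Ncapg (ENSMUSG00000015880, chr5:45669919-45700546) and Ncaph (ENSMUSG00000034906, chr2:127103809-127133954). The condensin II genes are Ncapd3 (ENSMUSG00000035024, chr9:27030175-27095315), Ncapg2 (ENSMUSG00000042029, chr12:116405402-116463731) and Ncaph2 (ENSMUSG00000008690, chr15:89355719-89372826). Ncapd2 and Ncaph lie on the minus strand and the other 6 on the plus strand.

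The 250 bases upstream of the RefSeq start are shown for Ncapg, the subunit with the largest difference between the groups, and for the 3 condensin II genes. They are read 5′ to 3′ on the coding strand from RefSeq, build GRCm38.p6. Capitals mark the letters of 3 motifs, searched on both strands: the E2F motif (TTTCCCGC, TTTGGCGC, TTTCGCGC or TTTGCCGC), the cell cycle genes homology region or CHR (TTTGAA or TTCGAA), and the CCAAT box (CCAAT). E2F and CHR elements are known from promoters of genes that peak in S phase and in G2 and mitosis.
Ncapg (chr5:45669675-45669924): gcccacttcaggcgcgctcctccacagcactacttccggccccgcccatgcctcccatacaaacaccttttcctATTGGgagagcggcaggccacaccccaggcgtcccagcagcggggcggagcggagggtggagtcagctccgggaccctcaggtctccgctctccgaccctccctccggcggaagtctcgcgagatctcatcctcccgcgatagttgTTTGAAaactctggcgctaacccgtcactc
Ncapg2 (chr12:116405186-116405435): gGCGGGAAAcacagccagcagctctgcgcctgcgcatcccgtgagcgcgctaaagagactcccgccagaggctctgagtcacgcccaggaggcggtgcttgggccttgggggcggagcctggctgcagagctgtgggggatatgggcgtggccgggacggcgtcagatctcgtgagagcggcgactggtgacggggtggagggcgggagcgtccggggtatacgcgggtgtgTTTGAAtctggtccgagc
Ncapd3 (chr9:27029915-27030164): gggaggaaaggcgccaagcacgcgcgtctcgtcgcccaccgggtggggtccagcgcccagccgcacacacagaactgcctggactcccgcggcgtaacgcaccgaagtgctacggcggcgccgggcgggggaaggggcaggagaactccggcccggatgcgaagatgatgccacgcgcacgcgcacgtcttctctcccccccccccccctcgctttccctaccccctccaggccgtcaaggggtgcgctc
Ncaph2 (chr15:89355469-89355718): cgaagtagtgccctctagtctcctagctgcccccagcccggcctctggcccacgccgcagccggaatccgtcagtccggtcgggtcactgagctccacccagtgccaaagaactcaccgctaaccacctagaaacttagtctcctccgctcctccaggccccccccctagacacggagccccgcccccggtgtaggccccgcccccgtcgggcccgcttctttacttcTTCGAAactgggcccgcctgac

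A RefSeq window from 250 bases before to 50 bases after the start was at hand for 7 of the 8 genes, with Smc4 the exception. CHR letters were in 5 of the 7 windows, against 19.2% of the 32851 mouse windows of the same length. In Ncapg they stood 30 to 25 bases before the RefSeq start, in Ncaph2 22 to 17 bases before it and in Ncapg2 18 to 13 bases before it. The RefSeq starts lay 0 to 115 bases from the GENCODE starts, Ncapd2 being the farthest. For Ncapg2 the RefSeq start was 34 bases downstream, so its CHR letters lie inside the GENCODE span. For Ncapd2 that start was 115 bases downstream, so its E2F letters and its CCAAT box nearest the start lie inside its GENCODE span. Ncapd2 held CHR letters farther upstream, and Smc2 held them at a pair of places. E2F letters were in 3 of the 7 windows (Ncapd2, Ncapg and Ncapg2), against 2.26% of all windows. In Ncapg they lay only downstream, at bases 32 to 39 counted from the RefSeq start, outside the bases shown above. Ncapd2 and Ncapg2 held them in the 250 bases upstream, as did 1.86% of all windows. CCAAT was in 3 of the 7 (Smc2, Ncapd2 and Ncapg), against 37.4%. The windows searched for Ncaph and Ncapd3 held none of these letters. Ncapd3 has 2 windows, and only the window nearest the GENCODE start was searched. A match is a description of the sequence and says nothing of binding in these cells.

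**Figure D1:**
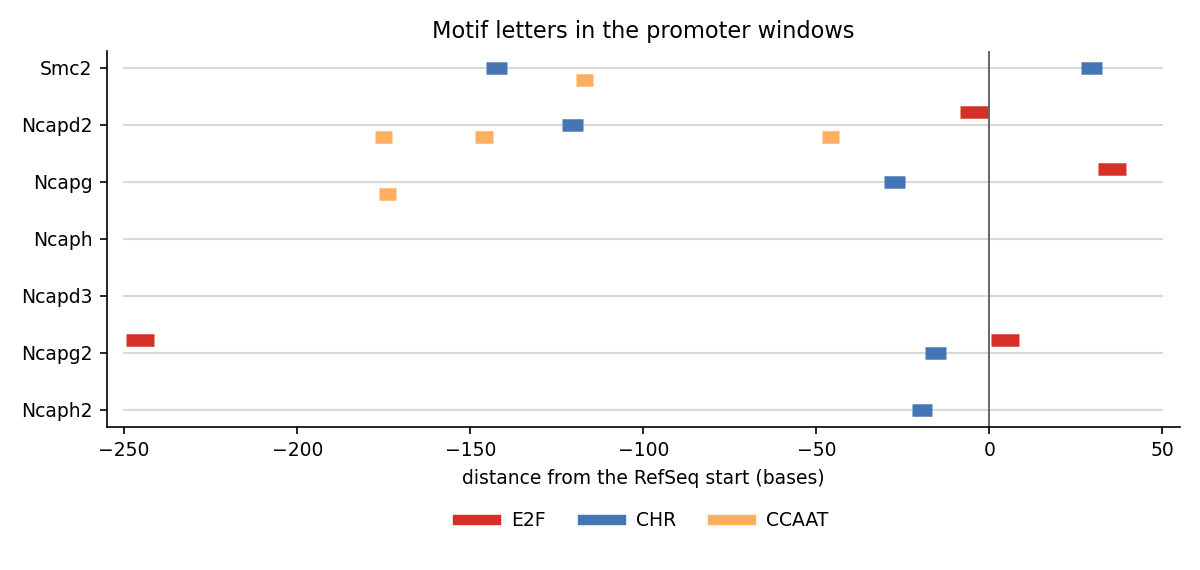
Positions of the searched motif letters in the RefSeq promoter windows of 7 condensin genes, as distance in bases from the RefSeq start (vertical line), with E2F in red, CHR in blue and CCAAT in orange. CHR letters stand within 30 bases before the RefSeq start in Ncapg, Ncapg2 and Ncaph2, and the windows shown for Ncaph and Ncapd3 have no match.

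Transcripts of all 8 condensin subunits were lower in GFP high than in GFP low. The fall was largest for Ncapg, to 38.6% of the GFP low level, and smallest for Ncaph2, to 67.3%. All 8 passed the test across all genes (quasi-likelihood test of edgeR, adjusted p under 0.05 by Benjamini and Hochberg), where 15.4% of the 12772 tested genes were called lower and 27.5% were called in either direction. In all 8 every GFP high library was below every GFP low library, which held for 12.6% of tested genes. The median log2 fold change of the 8 was -0.96, against 0.03 over all tested genes. Together the subunits took 0.126% ± 0.00852 of all counts in GFP high, against 0.230% ± 0.0122 in GFP low (n = 5 each, SD). In bulk RNA, fewer dividing cells and less condensin RNA per cell cannot be told apart.

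The libraries were of similar depth, with 11347097 to 13838769 counts in GFP high, against 10640894 to 14858520 in GFP low, and the subunits had 800 to 10731 counts in each library. Markers of B-cell progenitors were strongly expressed, with the 12 genes summing to 14200 to 16100 CPM (the count scaled to library size by TMM) in GFP high, against 11700 to 13000 CPM in GFP low. Of these 12 genes, 4 were called higher in GFP high (Cd79a, Igll1, Rag1 and Ebf1) and 0 lower, where 12.0% of all tested genes were called higher. Lists of other cell types also moved with the groups. The part of these lists in the results below was not tested. The 6 NK markers summed to 187 to 327 CPM in GFP high, against 63.1 to 166 CPM in GFP low, mostly from Klrb1c, with Eomes and Gzma at 0 in every library. The 7 monocyte and macrophage markers summed to 75.4 to 121 CPM in GFP high, against 44.4 to 86.0 CPM in GFP low, and the 5 stroma and endothelium markers, mostly Pecam1, to 245 to 291 CPM in GFP high, against 134 to 172 CPM in GFP low. Few of these passed the filter on low counts. The test called 1 of 2 tested NK markers, 2 of 3 tested monocyte and macrophage markers and 1 of 2 tested stroma and endothelium markers higher and 0 lower, where 12.0% of all tested genes were called higher. The 7 plasma cell markers summed to 320.0 to 394 CPM in GFP high, against 277 to 348 CPM in GFP low, with 3 of 6 tested higher (Derl3, Sdc1 and Xbp1) and 1 lower. That 1 was Jchain, the joining chain of secreted antibody, which averaged 0.629 CPM in GFP high, against 56.7 CPM in GFP low. The 7 T-cell markers stayed at or under 2.68 CPM in sum, with Cd8a at 0. The mature B-cell markers summed to 94.8 to 125 CPM in GFP high, against 143 to 152 CPM in GFP low, with H2-Ab1 lower (75.2 CPM in GFP high, against 123.6 CPM in GFP low) and Ighd higher (25.4 CPM in GFP high, against 13.6 CPM in GFP low). The erythroid markers summed to 16.6 to 46.8 CPM in GFP high, against 7.84 to 22.4 CPM in GFP low, with 1 of 4 tested higher (Hbb-bs). The plasmacytoid dendritic markers summed to 2.33 to 8.35 CPM in GFP high, against 0.287 to 1.26 CPM in GFP low without overlap, and the 1 tested, Siglech, was higher. The neutrophil, megakaryocyte, and basophil and mast cell lists each summed to at most 9.87 CPM in any library. Both libraries numbered 3 had 0 counts of 4 Y-linked genes that the other 8 expressed, and without both of them all 8 subunits still fell.

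The ATPase core was described first. Smc2, which binds the kleisin through its neck, had 179, 187, 168, 162 and 146 CPM in GFP high libraries 1 to 5, against 301, 313, 297, 266 and 309 CPM in GFP low libraries 1 to 5. GFP high library 5 was the lowest of the GFP high libraries and GFP low library 4 the lowest of the GFP low libraries. The log2 fold change was -0.82 ± 0.08 (SE, adjusted p = 3.26e-05), with means of 168 ± 15.5 CPM in GFP high, against 297 ± 18.5 CPM in GFP low (n = 5 each, SD). Smc4, its partner, had 376, 418, 363, 291 and 289 CPM in GFP high, against 724, 759, 747, 544 and 612 CPM in GFP low. Libraries 4 and 5 were the lowest in both groups. Smc4 fell by 0.96 ± 0.13 on the log2 scale (adjusted p = 0.000182), with means of 347 ± 56.4 CPM in GFP high, against 677 ± 94.4 CPM in GFP low.

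In condensin I all 3 specific subunits fell, 2 of them at least 2-fold (2.85% of all tested genes were called lower at that fold). Ncapg, a HEAT-repeat subunit that helps hold DNA, had 77.7, 87.6, 65.7, 66.3 and 69.3 CPM in GFP high, against 184, 212, 189, 186 and 179 CPM in GFP low. Library 2 was the highest in both groups, and the highest GFP high value lay far below the lowest GFP low value. It fell by 1.37 ± 0.10 on the log2 scale (adjusted p = 6.66e-06), and 1.45% of all tested genes had a lower log2 fold change. Ncaph, the kleisin that bridges the SMC heads, had 112, 126, 108, 105 and 116 CPM in GFP high, against 226, 277, 247, 243 and 261 CPM in GFP low. Library 2 was again the highest in both groups. Ncaph fell by 1.14 ± 0.08 (adjusted p = 6.66e-06). Ncapd2, the other HEAT-repeat subunit, had 141, 173, 148, 136 and 147 CPM in GFP high, against 259.7, 298, 281, 287 and 313 CPM in GFP low. Its groups were separate, and it fell by 0.95 ± 0.09 (adjusted p = 1.43e-05), the least of the 3.

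In condensin II all 3 specific subunits fell as well. Their log2 fold changes ran from -1.05 to -0.57, against -1.37 to -0.95 in condensin I. Ncapg2, the paralog of Ncapg, had 81.9, 100.3, 87.6, 102 and 89.3 CPM in GFP high, against 155, 202, 195, 186 and 218 CPM in GFP low. Library 1 was the lowest in both groups. It fell by 1.05 ± 0.10 (adjusted p = 2.49e-05), to 48.2% of the GFP low level. Ncapd3, the paralog of Ncapd2, had 95.5, 86.8, 93.9, 95.8 and 98.3 CPM in GFP high, against 129, 156, 118, 162 and 159.9 CPM in GFP low. The GFP high libraries lay close together, and among the GFP low libraries numbers 1 and 3 were the lowest. Ncapd3 fell by 0.62 ± 0.10 (adjusted p = 0.000667). Ncaph2, the paralog of Ncaph, had 189.7, 200.1, 188, 202 and 232 CPM in GFP high, against 260.0, 344, 328, 289 and 280.1 CPM in GFP low. GFP high library 5 and GFP low library 1 came nearest to each other, without overlap. Ncaph2 fell by 0.57 ± 0.10 (adjusted p = 0.000962).

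**Figure D2:**
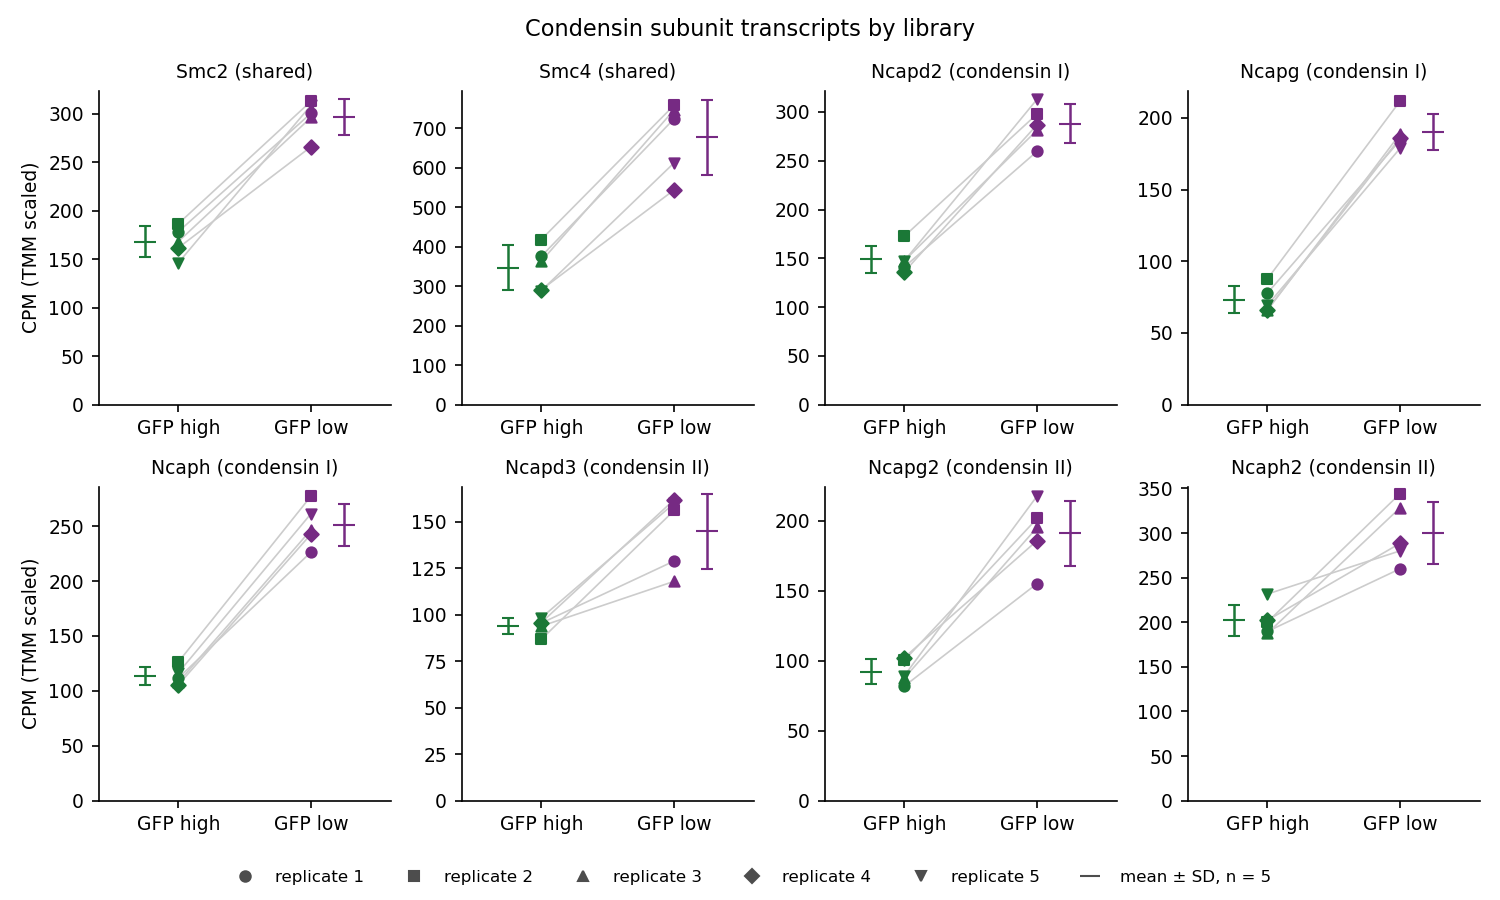
CPM of the 8 condensin subunits in each library, GFP high in green and GFP low in purple, with 1 marker shape per replicate number, grey lines joining libraries of the same number, and the mean ± SD of 5 libraries beside the points. All GFP high points lie below all GFP low points in every panel, and relative to its level the gap is widest for Ncapg and narrowest for Ncaph2.

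The size of the fall was also compared within each number. Libraries of the same number tended to deviate together. All 40 differences between same-numbered libraries (8 genes, 5 numbers) had the lower value in GFP high. This had to be so, since the groups did not overlap for any subunit, and it adds no support. For Ncapg the difference in log2 CPM ran from -1.52 in number 3 to -1.25 in number 1. For Ncaph2 it ran from -0.81 in number 3 to -0.27 in number 5, and for Ncapd3 from -0.85 in number 2 to -0.33 in number 3. Library 2 was the highest for 5 of the 8 subunits in GFP high and for 5 of the 8 in GFP low.

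Whether paralogs of condensin I and condensin II changed unequally was tested with the log2 ratio of their counts in each library, which does not depend on library scaling. The ratio of Ncaph to Ncaph2 was -0.76, -0.66, -0.80, -0.94 and -0.99 in libraries 1 to 5 of GFP high, against -0.20, -0.31, -0.41, -0.25 and -0.10 in GFP low libraries 1 to 5. The groups did not overlap, so the kleisin of condensin I was lower relative to that of condensin II in GFP high. The difference was -0.58 (two-sided exact permutation test, p = 0.00794, adjusted p = 0.0317 over the 4 ratios tested). That p is the smallest that 5 against 5 libraries can give. Without overlap the difference had to be negative in 5 of 5 numbers. With the numbers kept as pairs, an exact sign-flip test gave p = 0.0625, the smallest that 5 pairs allow, and adjusted p = 0.0833. Without 1 library at a time the difference stayed between -0.62 and -0.54, but of the 10 such tests those without GFP high library 1, 3, 4 or 5 or GFP low library 1, 2, 3 or 4 gave adjusted p = 0.0635, at the smallest raw p those sizes allow. It was -0.43 within numbers 1 to 3 and -0.79 within numbers 4 and 5.

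The HEAT-repeat paralogs gave smaller differences in the same direction that missed the threshold after adjustment. The ratio of Ncapd2 to Ncapd3 averaged 0.66 ± 0.19 in GFP high, against 0.999 ± 0.16 in GFP low (n = 5 each, SD). Its difference of -0.34 had an exact permutation p = 0.0317 and adjusted p = 0.0529, and GFP high library 2, at 0.99, lay among the GFP low libraries. Without that library the difference was -0.42 (exact permutation test, adjusted p = 0.0317). With any other single library left out, the same test gave adjusted p of 0.0635 to 0.106. The difference was negative in 4 of 5 numbers, and the paired exact sign-flip test gave p = 0.125 and adjusted p = 0.125. The ratio of Ncapg to Ncapg2 averaged -0.34 ± 0.21 in GFP high, against -0.0028 ± 0.19 in GFP low. Its difference of -0.33 had an exact permutation p = 0.0397 and adjusted p = 0.0529, and was negative in 5 of 5 numbers. It passed without GFP high library 2 (-0.37, exact permutation test, adjusted p = 0.0423) or GFP low library 5 (-0.40, exact permutation test, adjusted p = 0.0317). With any other single library left out, the same test gave adjusted p of 0.0635 to 0.106. For this ratio the paired exact sign-flip test gave p = 0.0625 and adjusted p = 0.0833. Within the shared core, the ratio of Smc2 to Smc4 averaged -1.03 ± 0.12 in GFP high, against -1.18 ± 0.16 in GFP low. The groups overlapped, and the difference of 0.14 did not pass (exact permutation p = 0.135, adjusted p = 0.135), although it was positive in 5 of 5 numbers.

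**Figure D3:**
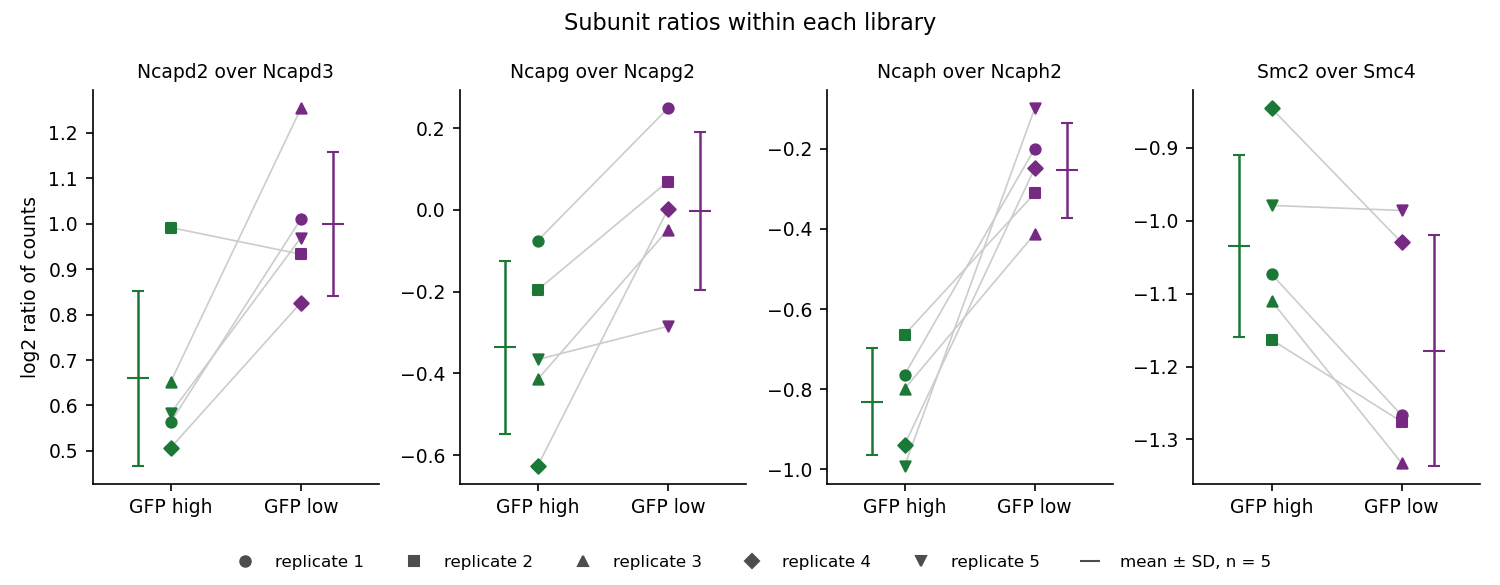
Log2 ratio of counts of each condensin I subunit over its condensin II paralog, and of Smc2 over Smc4, in each library, with GFP high in green, GFP low in purple, grey lines joining same-numbered libraries and the mean ± SD of 5 libraries at the side. The axes do not start at 0. The groups are separate for Ncaph over Ncaph2 and overlap in the other 3 panels.

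Levels can be compared between genes per length of exon. On the scale of CPM per kilobase of annotated exon, Smc4 was the highest subunit at 66.7 ± 10.8 in GFP high, against 130.0 ± 18.1 in GFP low, followed by Ncaph2 at 48.2 ± 4.20 in GFP high, against 71.5 ± 8.33 in GFP low (n = 5 each, SD). In GFP high the next levels were Smc2 at 30.7 ± 2.84, Ncaph at 26.4 ± 1.92 and Ncapd2 at 23.8 ± 2.24, and the ranges of neighbours in this order overlapped. Ncapd3, Ncapg and Ncapg2 were the lowest in GFP high, at 11.9 ± 0.553, 10.4 ± 1.32 and 9.28 ± 0.878, and the ranges of Ncapd3 and Ncapg, and of Ncapg and Ncapg2, overlapped. In GFP low, Ncaph at 58.3 ± 4.49 stood between Ncaph2 and Smc2 at 54.3 ± 3.38, and Ncapg at 26.9 ± 1.80 stood above Ncapg2 at 19.2 ± 2.34 and Ncapd3 at 18.4 ± 2.55 without overlap. Taken over the longest annotated transcript, the order of the means changed, with Ncaph and Ncapd2 above Smc2 in both groups and Ncaph above Ncaph2 in GFP low. The ranges of Ncapd2 and Smc2 overlapped in both groups, as did those of Ncaph and Ncaph2 in GFP low. The order of the lowest subunits in GFP high was reversed, with Ncapg2 at 19.7, Ncapg at 18.4 and Ncapd3 at 17.1, with overlapping ranges. In GFP low the ranges of Ncapg and Ncapg2 then overlapped.

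Summed per kilobase, the 3 condensin I subunits came to 60.5 ± 5.22 in GFP high, against 131 ± 8.27 in GFP low, a mean of 46.1% of the GFP low level. The 3 condensin II subunits came to 69.4 ± 4.61 in GFP high, against 109 ± 10.2 in GFP low, or 63.6%, and the shared pair to 97.4 ± 13.5 in GFP high, against 184 ± 20.6 in GFP low, or 52.9%. The ratio of condensin I to condensin II was 0.907, 1.01, 0.885, 0.787 and 0.788 in libraries 1 to 5 of GFP high, against 1.28, 1.16, 1.14, 1.19 and 1.25 in GFP low libraries 1 to 5. All GFP high libraries lay below all GFP low libraries, with no test since this sums over chosen genes. The level of the ratio depends on the gene lengths used, and with a geometric mean of the subunits in place of the sum it was 1.07 in GFP high, against 1.43 in GFP low.

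**Figure D4:**
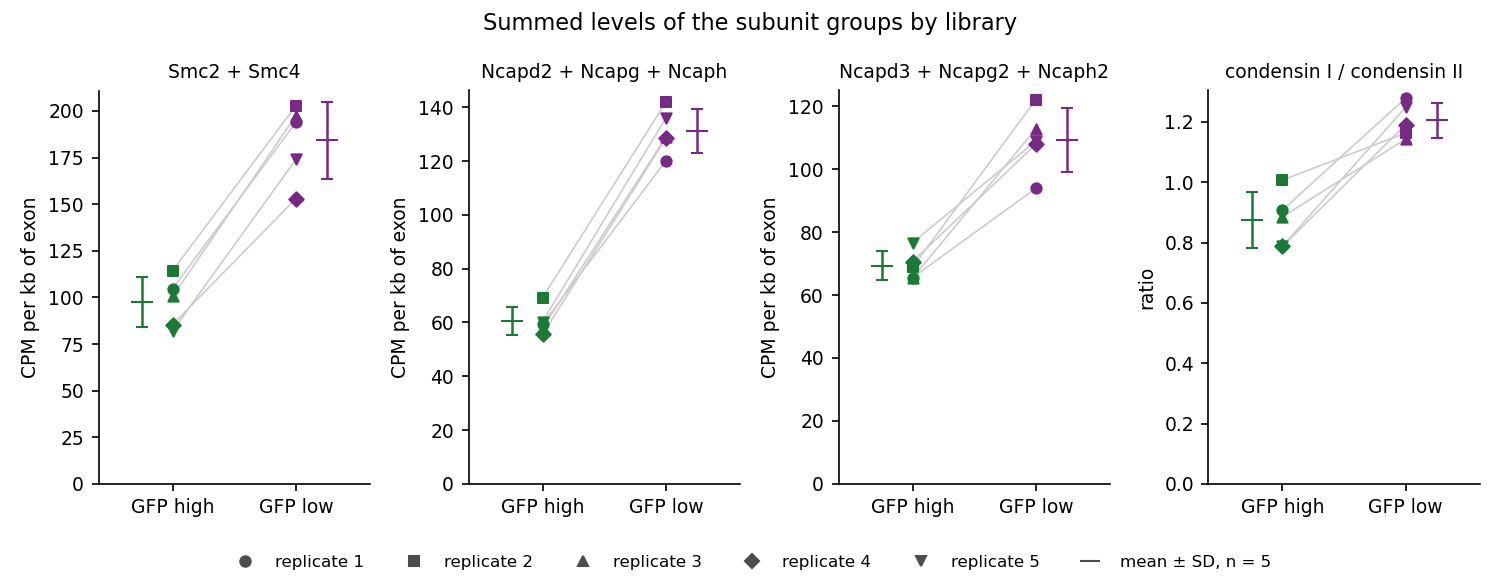
Summed CPM per kilobase of exon for the shared, condensin I and condensin II subunits, and the ratio of condensin I to condensin II, in each library (GFP high green, GFP low purple, grey lines joining same-numbered libraries, mean ± SD of 5 libraries at the side). The ratio averages 0.875 in GFP high, against 1.21 in GFP low, and the groups do not overlap.

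The counts could be touched by overlapping genes, since the strand setting of the counting was not stated. Lcorl, on the opposite strand, covers 13.4% of the annotated exon bases of Ncapg and had 488 to 896 counts in GFP high, against 455 to 889 in GFP low, with a log2 fold change of 0.08 ± 0.13 (adjusted p = 0.701). Sco2 and Tymp, also opposite, cover 19.7% and 12.7% of the exon bases of Ncaph2, and had at most 4 and 22 counts in any library. The small RNA genes Mir15b and Mir16-2 lie in an intron of Smc4 and had at most 1 count, in libraries made from polyadenylated RNA. Within Ncapd2, Scarna10 had at most 2 counts and Gm28967 had 0.

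The genes whose profiles over the 10 libraries were nearest to each subunit were sought by the root mean square difference of log2 CPM after subtracting each gene's mean, among 8928 other genes with a mean of at least 10 CPM. The nearest to Smc2 were Ckap5, a microtubule polymerase (0.08), and Sept11, a septin (0.08), and the nearest to Smc4 were Cks2, a binding partner of cyclin-dependent kinases (0.05), and Cenpf, a kinetochore protein (0.07). For condensin I, Ncapg was nearest to Pclaf, which binds the replication clamp (0.08), and Ube2c, a ubiquitin-conjugating enzyme of mitotic exit (0.11). Ncaph was nearest to the spindle gene Nusap1 (0.06) and the mitotic kinase gene Aurkb (0.08), and Ncapd2 to the chromatin ATPase gene Atad2 (0.08) and the polymerase gene Pola1 (0.08). For condensin II, Ncapg2 was nearest to Otub2, a deubiquitinase (0.09), and Rrm1, a subunit of ribonucleotide reductase (0.10). Ncapd3 was nearest to Anapc5, a subunit of the anaphase-promoting complex (0.09). Ncaph2 was nearest to metabolic enzymes, the fatty acid oxidation gene Acadl (0.05) and the pentose phosphate gene Taldo1 (0.06). All values are descriptions over 10 libraries that share a group difference.

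Among the subunits themselves, Ncapd2, Ncaph and Ncapg2 were close, with Ncapd2 the 11th nearest gene to Ncapg2 and Ncaph the 14th nearest to each of Ncapd2 and Ncapg2. By this measure Ncapg2 was nearer to the condensin I genes Ncapd2 (0.12) and Ncaph (0.13) than to its own partners Ncapd3 (0.28) and Ncaph2 (0.28). Smc2 was the 31st nearest gene to Smc4.

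Known regulators and partners of condensin, and the related SMC complexes, were then set beside the subunits. Over all tested genes 15.4% were called lower and 12.0% higher, with a median log2 fold change of 0.03. Of 12 condensin regulators 9 fell and 0 rose, with a median of -1.08. They included Ccnb1, the mitotic cyclin whose kinase phosphorylates condensin (118 ± 18.5 CPM in GFP high, against 299 ± 24.1 CPM in GFP low, -1.34 ± 0.11, adjusted p = 1.24e-05), and Aurkb, the chromosomal passenger kinase that helps load condensin I (106 ± 6.77 CPM in GFP high, against 220.4 ± 15.8 CPM in GFP low, -1.06 ± 0.08, adjusted p = 6.955e-06). Csnk2a1, a catalytic subunit of casein kinase that phosphorylates condensin in interphase, had 44.1 ± 4.72 CPM in GFP high, against 41.4 ± 2.48 CPM in GFP low (0.09 ± 0.10, adjusted p = 0.534). Mcph1, an inhibitor of condensin II, had a change of -0.32 ± 0.17 on the log2 scale (adjusted p = 0.1997), and Akap8, a nuclear anchoring protein, had 0.31 ± 0.15 (adjusted p = 0.159), which passed with the replicate block (0.30, adjusted p = 0.00151). Both were named after their values were seen.

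Of 5 genes of the mitotic chromosome axis and surface 4 fell and 0 rose, with a median of -1.09. Top2a, the topoisomerase that works with condensin on mitotic chromosomes, had a mean of 466 CPM (range 408 to 603) in GFP high, against 967 CPM (range 839 to 1080) in GFP low (-1.05 ± 0.11, adjusted p = 4.51e-05). Its paralog Top2b had 639 ± 104 CPM in GFP high, against 716 ± 111 CPM in GFP low (-0.16 ± 0.13, adjusted p = 0.373), and passed with the replicate block (-0.17, adjusted p = 0.0315). The chromokinesin gene Kif22 fell by 1.09 ± 0.11 (adjusted p = 2.67e-05).

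The related SMC complexes had medians nearer 0. Of the 5 core genes of cohesin, which holds sister chromatids together, 4 fell and 0 rose, with a median of -0.45. Of these, Smc3 lost its call without both libraries numbered 3 (-0.41, adjusted p = 0.0733). Stag1 had 144 ± 6.47 CPM in GFP high, against 222 ± 17.8 CPM in GFP low (-0.62 ± 0.08, adjusted p = 0.000133), and the SMC subunit gene Smc1a fell by 0.45 ± 0.09 (adjusted p = 0.0024). Stag2 had a change of -0.22 ± 0.12 (adjusted p = 0.188), which passed when the replicate block was used (-0.23, adjusted p = 0.00508). Stag2 also passed in replicates 4 and 5 alone (-0.24, adjusted p = 0.0373). Of 12 cohesin regulators 6 fell and 0 rose, with a median of -0.34. The separase gene Espl1 (-0.99 ± 0.11, adjusted p = 4.66e-05) and the S-phase acetyltransferase gene Esco2 (-1.08 ± 0.16, adjusted p = 0.000455) fell, and the acetyltransferase gene Esco1 missed the threshold (0.12 ± 0.135, adjusted p = 0.534). With the replicate block the cohesin loader genes Nipbl (0.22, adjusted p = 0.00947) and Mau2 (0.31, adjusted p = 0.0124) were higher. With the same block Pds5a, a regulator of cohesin release, was lower (-0.21, adjusted p = 0.0174). Nipbl also passed in replicates 1 to 3 alone (0.29, adjusted p = 0.0491) and Pds5a in replicates 4 and 5 alone (-0.31, adjusted p = 0.0164). Nipbl, Mau2 and Pds5a were all 3 named after their values were seen. Of 9 genes of the SMC5/6 complex, which acts in DNA repair, 8 were tested, 5 fell and 0 rose, with a median of -0.36. Smc5 lost its call in replicates 1 to 3 alone (-0.16, adjusted p = 0.236) and without both libraries numbered 3 (-0.30, adjusted p = 0.0956). Nsmce1 fell by 0.72 ± 0.11 (adjusted p = 0.000525) and Nsmce2 by 0.44 ± 0.08 (adjusted p = 0.00178), while Slf1 did not pass (0.07 ± 0.10, adjusted p = 0.668). Whether condensin genes changed more than these lists was not tested.

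**Figure D5:**
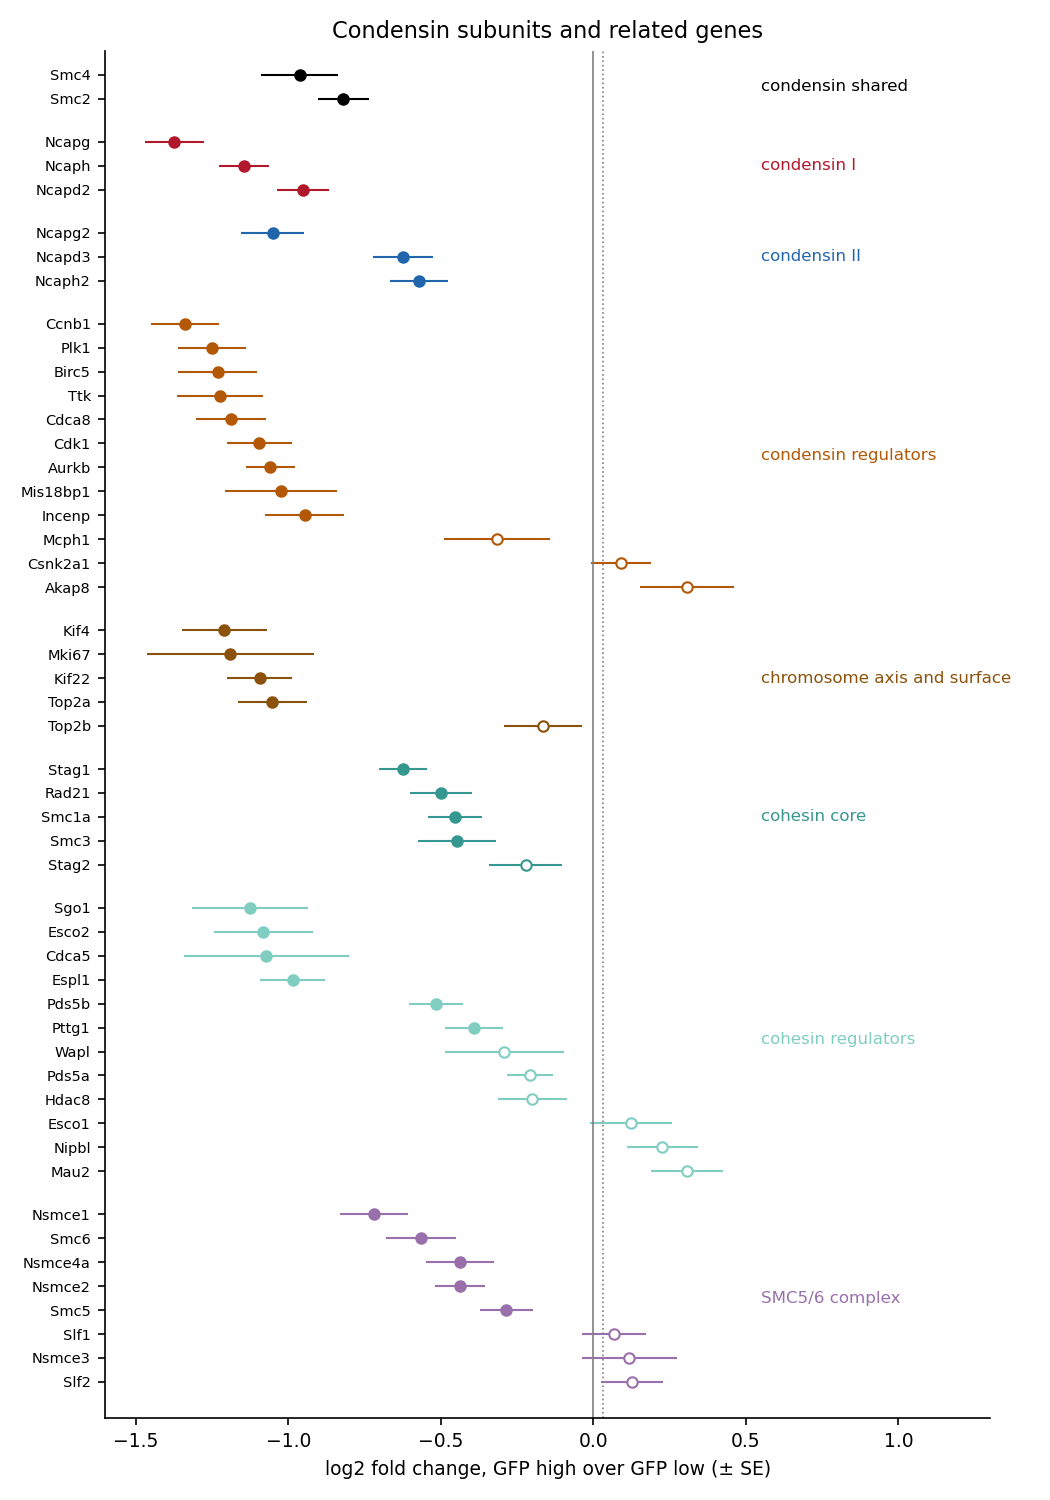
Log2 fold change of GFP high over GFP low with its SE for the 8 condensin subunits and 5 related gene lists, 1 row per gene, filled where the adjusted p was under 0.05 and open where it was not. The solid line marks 0 and the dotted line the median of all tested genes (0.03), and all 8 condensin subunits lie between -1.37 and -0.57.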

How the data were processed

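Polyadenylated RNA of 10 libraries was made into cDNA with a template-switching kit for small inputs, per the labels' protocols. The deposited table holds raw, whole-number counts per Ensembl gene. The submitters' processing notes name STAR, featureCounts, DESeq2 and mm10, without settings, and the strand setting was not stated. Symbols and positions came from GENCODE M21 (GRCm38), which matched 99.833% of identifiers. Groups and replicate numbers came from the sample titles.

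The deposited counts went into edgeR 4.0.16 (R 4.3.3) with filterByExpr (12772 genes kept), TMM scaling and the quasi-likelihood test of GFP high against GFP low with no covariate. Benjamini-Hochberg adjustment ran over all tested genes, with a threshold of 0.05, and a fold change divides GFP high by GFP low. The same fit was tested on simulated data. Paralog ratios were log2 ratios of counts with 0.5 added to each, compared by exact permutation in scipy 1.17.1. CPM per kilobase used the union of annotated exons. Alternatives were DESeq2 1.42.0, its size factors, other filters, a replicate block and libraries left out.

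Same-numbered libraries correlated in their deviations from group means with r of 0.248 to 0.353. For each number this was above the highest r of that GFP high library with another number. The margin was smaller for number 4 (0.349 against 0.292) and number 5 (0.353 against 0.321). In the 2 libraries numbered 3, 4 Y-linked genes had 0 counts, against 293 to 2649 elsewhere. The numbers were taken as possible pairs, and the main fit did not use them. No library pair within a group agreed within sampling noise (lowest chi-square per gene 6.92). The members and lists were chosen with earlier results of these data known. From each related list the 2 genes with the lowest p and the 1 with the highest p are named, with the 2 genes nearest to each subunit and any gene overlapping one; 1 gene that this rule names is not reported here. All sample columns were used.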

Additional observations from a re-analysis of the deposited data

How the results depend on the processing

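All 8 condensin subunits fell in each of the 18 alternative fits across all genes, the highest adjusted p being 0.0104 (Ncapd3 in replicates 1 to 3 alone). Ncaph2 ranged from -0.67 in replicates 1 to 3 alone to -0.41 in replicates 4 and 5 alone, and Ncapd2 from -0.84 in replicates 1 to 3 alone to -1.10 in replicates 4 and 5 alone. Over all genes, 1538 were higher and 1973 lower, and with the replicate block 2645 were higher and 2688 lower, which kept 3486 of the 3511 calls. Without both libraries numbered 3, 926 were higher and 1367 lower. With 1 library left out at a time 1189 to 1479 were higher and 1617 to 1940 lower. The block changed no call of a condensin subunit. Cohesin regulators called higher numbered 0, but 2 with the block, 1 in replicates 1 to 3 alone and 0 to 1 with 1 library left out, and condensin regulators called higher numbered 0, but 1 with the block and 1 in replicates 1 to 3 alone; the cause was not tested. SMC5/6 genes called lower, 5 in all, numbered 4 in replicates 1 to 3 alone, without both libraries numbered 3 and with no filter, and 4 to 5 with 1 library left out. Cohesin core genes called lower, 4 in all, numbered 5 with the block and 5 in replicates 4 and 5 alone. They numbered 3 without both libraries numbered 3 and 3 to 4 with 1 library left out.

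The difference in the ratio of Ncaph to Ncaph2 was -0.62 (exact permutation test, adjusted p = 0.114) without both libraries numbered 3, where fewer libraries limit the smallest p. It was -0.58 (adjusted p = 0.0833, exact sign-flip test) in the paired test with the replicate block, -0.43 in replicates 1 to 3 alone, -0.79 in replicates 4 and 5 alone, and between -0.62 and -0.54 with 1 library left out. That of Ncapd2 to Ncapd3 lay between -0.42 and -0.28 and that of Ncapg to Ncapg2 between -0.40 and -0.26 with 1 library left out. The ratio of summed condensin I to condensin II levels, 0.875 in GFP high and 1.21 in GFP low, was 1.07 in GFP high and 1.43 in GFP low with a geometric mean, and 0.949 in GFP high and 1.29 in GFP low with the longest transcript as length. Each subunit had at least 800 counts in every library, and the share of counting error in the spread between libraries was not computed.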
